A study of Mus musculus with 2 samples.

Results

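Cells with high counts of loricrin (Lor), filaggrin (Flg) and filaggrin-2 (Flg2) were selected from single-cell 3′ RNA profiles of mouse dorsal skin. A cell was kept with at least 200 detected genes and at most 20% mitochondrial counts. It was selected if Lor, Flg and Flg2 together made up at least 20 of every 10000 of its counts and at least 2 of the 3 genes were detected. This gave 111 of 18965 cells, called Lor/Flg cells here. Of these, 101 came from skin given both Shi-Bi-Man and imiquimod (the SBM library) and 10 from skin given imiquimod alone (the IMQ library). Both groups were C57BL/6 mice aged 7 weeks, and both received imiquimod, a Toll-like receptor agonist that produces psoriasis-like inflammation in mouse skin. Shi-Bi-Man is the product whose action in psoriasis the series addresses. The labels give no dose, no duration of treatment and no number of animals behind each library. Each group was 1 library, so there is no replicate check and no test between groups. Intervals are 95% intervals for counting error only.

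Keratinocytes of the epidermis leave the basal layer, pass through the spinous and granular layers and end as dead corneocytes of the surface. In the granular layer they store profilaggrin and loricrin, secrete barrier lipids from lamellar bodies, and assemble the cornified envelope, in which transglutaminases cross-link loricrin, involucrin and small proline-rich proteins beneath the membrane. Late cornified envelope (Lce) genes come on at the end of this programme, and kallikrein proteases later cut the corneodesmosomes that hold corneocytes together. In psoriatic skin the granular layer is thinned or lost.

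Of 5 markers of granular and cornifying keratinocytes, Lor, Flg and Flg2 chose the cells, and the late cornified pair Lce1a1 and Lce1b was nearly absent. In the SBM library Lor was detected in 96, Flg in 100 and Flg2 in 22 of 101 cells, and all 3 in 16. These genes chose the cells, so the counts only describe the choice. Lce1a1 and Lce1b, which the selection did not use, were each counted in 2 of the 101 cells. One cell held 97.5% of the 239 Lce1a1 counts and 98.7% of the 223 Lce1b counts. In the IMQ library, no Lor/Flg cell had a count of Lce1a1 or Lce1b. On these 2 markers the cells are called by their leading genes and not as cornifying cells. Over all 21 Lce genes, a count was seen in 80 of the 101 SBM cells and 7 of the 10 IMQ cells.

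The cells were not uniform in quality. Of the 101 cells, 78 also met a keratin rule, by which the 6 keratins Krt1, Krt5, Krt10, Krt14, Krt15 and Krt17 made up at least 100 of every 10000 counts and exceeded the sum of 24 genes of other cell types. The other 23 had a median of 1082 counts, against 5925 in the 78. In 8 of the 23 cells more than 10% of counts were mitochondrial, against 1 of the 78. Collagen counts exceeded keratin counts in 9 of the 23. Fibroblast markers made up 370 per 10000 counts of the 23 cells and 19.7 of the 78, against 22.1 in spinous-type keratinocytes of the same library. All 5 fibroblast markers were seen in the 101 cells. Their part in the results was not tested, and values for the 78 cells are given beside those that move. Of the 101 cells, 11 had fewer than 5 counts of the 3 genes together and 4 had only 2, while 38 had at least 50.

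The level of the 3 genes had a median of 75.8 per 10000 counts in the SBM library, with quartiles of 38.5 and 196 and a highest value of 1433. Just inside the limit of 20 the values were 20.02, 20.3 and 21.9 per 10000, and just outside it 19.8, 19.5 and 19.0 among cells with at least 2 of the genes. Between 20 and 30 per 10000 there were 15 selected cells, and 33 cells with at least 2 of the genes lay between 10 and 20. A further 106 cells passed the level with only 1 of the 3 genes detected and were not selected, compared with 21 in the IMQ library. Flg counts exceeded Lor counts in 88 cells and Lor counts exceeded Flg counts in 10. By counts, Flg made up most of the level in most cells.

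**Figure D1:**
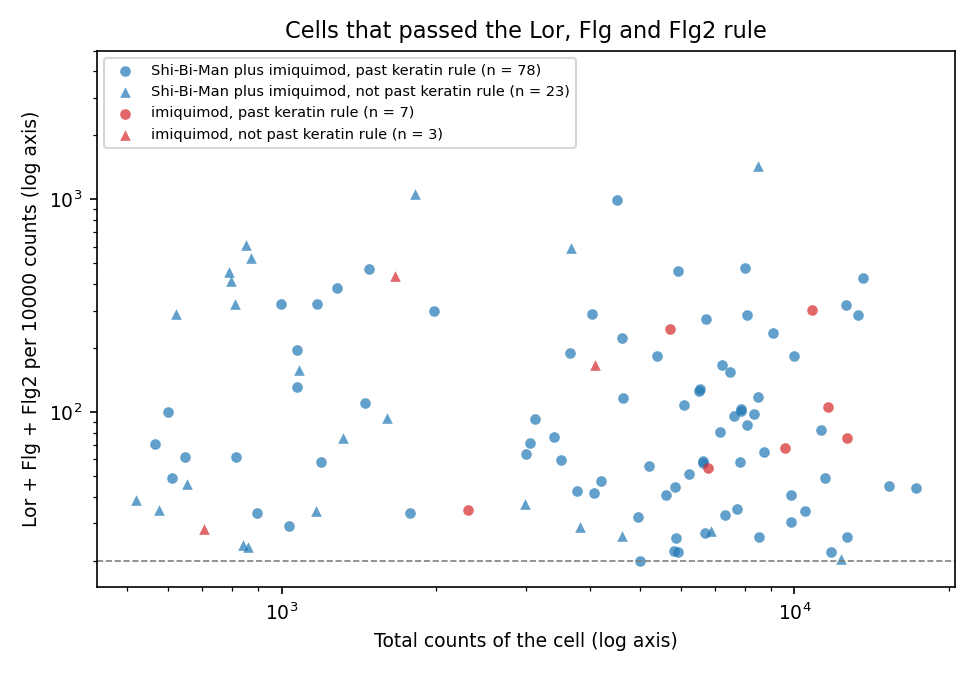
Each point is 1 selected cell, by its total counts (horizontal, log axis) and the level of Lor, Flg and Flg2 together per 10000 counts (vertical, log axis), with the library in colour and triangles for cells that did not meet the keratin rule. The dashed line is the limit of 20, and the 23 triangles of the SBM library had a median of 1082 counts against 5925 for the 78 circles.

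Lor, Flg and Hrnr (hornerin, a filaggrin relative) lie in the epidermal differentiation complex on chromosome 3, and their upstream sequences are shown because genes of this complex were high together in the selected cells. The 250 bases before each start are given 5′ to 3′ on the strand of the gene, from RefSeq on GRCm38.p6: Lor at chr3:92083143-92083392 on the minus strand, Flg at chr3:93273296-93273545 and Hrnr at chr3:93319499-93319748 on the plus strand. Capitals mark matches to TGANTCA, a loose form, with any base at N, of the letters that AP-1 factors bind. They also mark TATAAA, a core promoter element. The TGANTCA match reads TGAGTCA in Lor and TGAATCA in Flg, and matches were not counted by their centre base.
Lor: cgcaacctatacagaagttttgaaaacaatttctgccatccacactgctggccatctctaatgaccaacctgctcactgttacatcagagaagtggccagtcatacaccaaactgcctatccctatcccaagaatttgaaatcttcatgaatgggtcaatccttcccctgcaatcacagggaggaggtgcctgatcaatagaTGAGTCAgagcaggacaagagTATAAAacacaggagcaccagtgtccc
Flg: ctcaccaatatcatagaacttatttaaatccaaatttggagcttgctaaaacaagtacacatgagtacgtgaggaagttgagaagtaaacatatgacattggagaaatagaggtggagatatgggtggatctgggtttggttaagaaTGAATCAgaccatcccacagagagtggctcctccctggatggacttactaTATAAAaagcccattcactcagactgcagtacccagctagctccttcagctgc
Hrnr: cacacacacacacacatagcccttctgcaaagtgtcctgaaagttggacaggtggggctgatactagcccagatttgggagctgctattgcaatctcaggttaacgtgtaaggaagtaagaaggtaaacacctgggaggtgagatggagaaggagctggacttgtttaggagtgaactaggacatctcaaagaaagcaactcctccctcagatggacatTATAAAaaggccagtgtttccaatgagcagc
Both Lor and Flg carried 1 match to each motif, and Hrnr carried TATAAA alone. Windows of 300 bases, from 250 before to 50 after the start, were searched on both strands for these motifs and for AACNNGTT, which grainyhead-like factors bind. Each motif was counted on its own, whether or not its match overlapped that of another. Of 48 genes listed for the cornified envelope, 42 had such a window. TGANTCA was in 15 of these 42 (35.7%), compared with 7.81% of all 32851 windows. TATAAA was in 19 (45.2%), compared with 13.6%, and AACNNGTT in 1 (2.38%), compared with 4.20%. Several of the matched Sprr2 windows belong to close gene copies and are not separate observations. A match describes letters only.

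Lor/Flg cells were rare in both libraries and made up a larger share of the SBM library. The share was 1.27% (1.04 to 1.54, Clopper-Pearson) of 7946 cells there and 0.0908% (0.0435 to 0.167) of 11019 cells in the IMQ library, a ratio of 14.0 (log2 ratio 3.74, interval 2.87 to 4.91). Among keratinocytes, counted as Lor/Flg cells plus those meeting the keratin rule, the shares were 4.45% of 2268 (3.64 to 5.38) and 0.549% of 1820 (0.264 to 1.01). Against spinous-type keratinocytes alone, in which Krt1 and Krt10 exceed Krt5, Krt14 and Krt15, they were 7.41% of 1363 and 2.18% of 458. The libraries thus differed most over all cells and least when the spinous-type cells were the denominator. Keratinocytes outside the selection were 27.3% of the first library and 16.4% of the second. How far treatment, the piece of skin and its dissociation set these shares cannot be told apart. The libraries shared 49 barcodes, none of them in a Lor/Flg cell.

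All comparisons that follow were within the SBM library until the 2 libraries are set side by side. Counts were summed over cells and are given as CPM, counts scaled to a total of 1000000 in each set, 528587 counts for the 101 cells and 8388255 for 2167 other keratinocytes. A gene was measured with at least 20 counts over both sets and is called higher or lower from a 2-fold difference. Because the cells were chosen by genes of this programme, these contrasts describe the choice. Of 12145 genes, 10.6% were higher and 25.5% lower in the Lor/Flg cells than in the other keratinocytes, and the median log2 ratio over all of them was -0.31. Against the 1262 spinous-type cells, 11.1% of 10543 genes were higher and 14.7% lower (median -0.10).

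Lor stood at 4410 CPM in the Lor/Flg cells and 20.6 CPM in other keratinocytes, and Flg at 10808 and 349 CPM. Per cell, Lor ran from 0 through a median of 11.9 to 825 per 10000 counts, and Flg from 0 through 59.98 to 638. Flg2, at 151 and 2.86 CPM, was present in few cells, and 40.0% of its 80 counts came from 1 of them. One cell also held 30.03% of the 2331 Lor counts. Thinned to 500 counts per cell, Lor was found in 51.5% of Lor/Flg cells, 0.97% of other keratinocytes, 1.21% of fibroblast-type cells and 2.11% of T cell-type cells. Without thinning it was in 95.05% and 6.60% of the first 2 sets, whose medians were 4958 and 3462 counts. Flg after thinning was in 90.1%, 9.04%, 1.998% and 3.61% of these 4 sets. Cells past the rule had been taken out of the other sets, so these shares describe the choice.

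Of the envelope genes that the selection did not use, 37 were measured, 33 were higher and 1 was lower in the Lor/Flg cells than in other keratinocytes, with a median log2 ratio of 4.07. Hrnr was at 2475 CPM and 66.0 CPM, 5.23 higher on the log2 scale (5.08 to 5.37), with cells ranging from 0 through 11.2 to 156 per 10000. It was counted in 73 of 101 cells, and 46.5% of them kept it after thinning, against 2.17% of other keratinocytes and 0.28% of fibroblast-type cells. Crct1, a small cysteine-rich envelope protein, was at 2208 and 175 CPM (log2 ratio 3.65). Cnfn (cornifelin) reached 3854 and 667 CPM (2.53), and Ivl (involucrin, an early envelope scaffold) 1016 and 168 CPM (2.60). Both were present in most cells, 85 and 74 of 101.

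Lce genes divided into a broad and a narrow set. Lce1f was counted in 56 of 101 cells at 2087 CPM, against 89.3 in other keratinocytes (4.55, interval 4.41 to 4.68), and Lce3d in 49 cells at 1990 and 291 CPM (2.78). Lce1a1, Lce1b, Lce1h and Lce6a were each in 2 cells. A single cell held 1535 of the 4494 counts of 21 Lce genes (34.2%), and 15 of the 37 envelope genes drew most of their counts from 1 cell. Without that cell the envelope median was 2.55. Kprp, a keratinocyte proline-rich protein, had 58.1% of its 124 counts in 1 cell, and its log2 ratio of 8.25 became 7.55 without the highest cell of each set. In the 78 cells that met the keratin rule, measured against spinous-type cells, 19 of 25 envelope genes were higher and 1 lower (median 1.94), where 9.18% of all genes were higher and 18.5% lower. Lce and Sprr2 genes are close copies, and how reads matching several copies were counted was not given, so single members of these families are uncertain.

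Small proline-rich genes differed less. Sprr1a was at 15988 CPM, against 9242 in other keratinocytes (0.79) and 13151 in spinous-type cells (0.28), and it was present in 97 Lor/Flg cells and 88.4% of other keratinocytes. Sprr2h stood at 4113 and 984 CPM (2.06), and Sprr2d at 3316 and 821 CPM (2.01). Evpl and Ppl, the plakins envoplakin and periplakin on which the envelope is built, were 1.30 and 1.21 higher against other keratinocytes but below 2-fold against spinous-type cells, at 0.95 and 0.94. Sprr2k was at 0 counts.

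**Figure D2:**
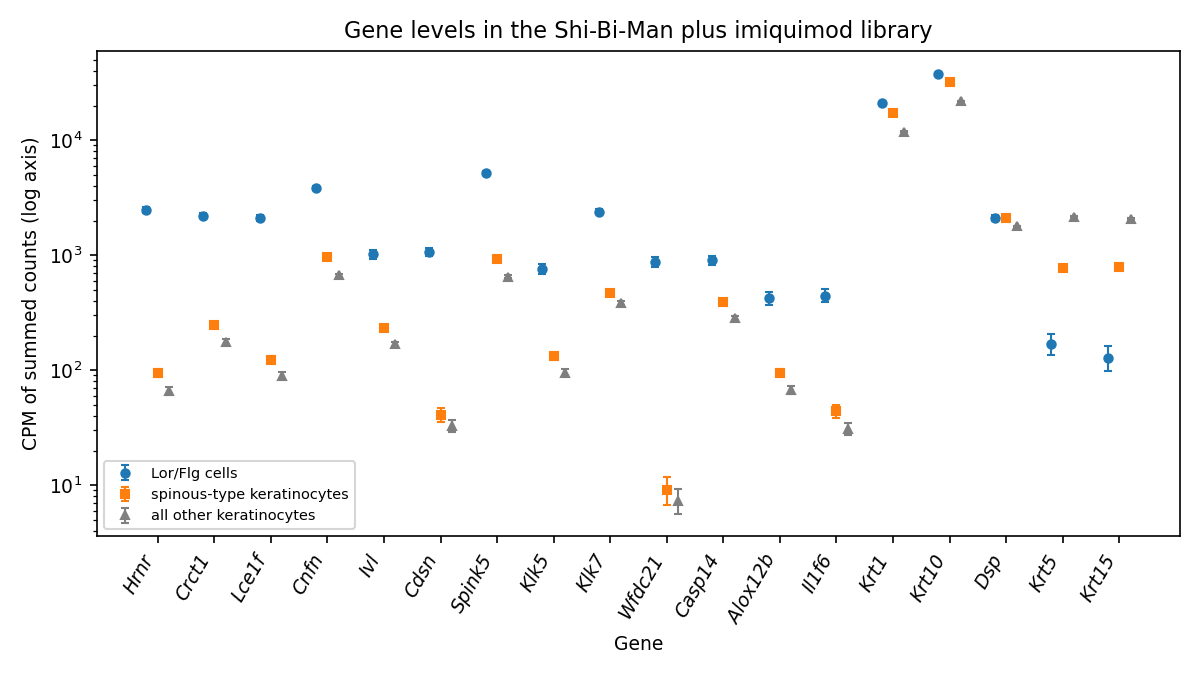
CPM of summed counts (log axis) of 18 genes in Lor/Flg cells, spinous-type keratinocytes and all other keratinocytes of the SBM library, with exact Poisson intervals. Hrnr, Cdsn and Wfdc21 were over 20-fold apart between Lor/Flg and spinous-type cells, Krt1, Krt10 and Dsp lay within 2-fold, and Krt5 and Krt15 were lower in the Lor/Flg cells. The keratins shown took part in choosing the comparison cells.

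By position, the listed envelope genes on chromosome 3 span 92080271 to 93399442 (GENCODE vM21, GRCm38) and number 44 of the 48 listed. Of 41 measured genes in this span other than Lor, Flg and Flg2, 35 (85.4%) were higher and 2 lower. Elsewhere on chromosome 3, 52 of 601 genes (8.65%) were higher. The span also holds 8 measured genes that were on no list, and 5 of them were higher. One of these, 2310046K23Rik, was at 734 CPM. Another, Gm37913, had 9 counts, all of them in 1 cell. Of the 37 measured envelope genes, 15 drew most of their counts from 1 cell, and the span was not counted without such genes. Neighbouring genes here are often copies of one another and are not independent.

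Enzymes that cross-link the envelope or process filaggrin were more often higher than lower: 9 of 16 measured genes were higher and 1 lower (median 1.32). Tgm1, the membrane transglutaminase of the envelope, was at 206 and 49.7 CPM (log2 ratio 2.06). Blmh, which breaks filaggrin down into amino acids, was at 893 and 224 CPM (1.998). Casp14, a caspase of cornification, was at 900.5 and 282 CPM (1.68), and Asprv1, a protease that cuts profilaggrin, at 2910 and 1061 CPM (1.46). These 4 genes were counted in 41 to 85 of the 101 cells. Tgm3, a second transglutaminase of the epidermis and hair, was not among them, at 56.8 and 81.1 CPM (-0.49, interval -1.09 to 0.01). Ctsc, a lysosomal protease, was the gene that was lower, at 43.5 and 120 CPM.

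Kallikreins and their inhibitors were higher in 11 of 18 measured genes and lower in none (median 2.02). Klk5, which activates the desquamation cascade, was at 757 CPM and 94.8 CPM (2.998, interval 2.82 to 3.17), and Klk7, a protease that cuts corneodesmosin, at 2395 and 383 CPM (2.65). Their inhibitor Spink5 (LEKTI) was at 5214 and 651 CPM (3.002, interval 2.93 to 3.07), present in 93 of 101 cells with a median of 41.2 per 10000 and a highest value of 203. Proteases and inhibitor were thus high in the same cell set. Wfdc21, a whey-acidic-protein family gene, was at 872 and 7.27 CPM (6.90, interval 6.52 to 7.32) and was counted in 43 cells. Of its 461 counts, 28.2% came from 1 cell, and the ratio was 6.61 without the highest cell of each set. Serpina12 (vaspin, an inhibitor of kallikreins) had 57 counts in 16 cells, against 2 counts in 2167 other keratinocytes. Against spinous-type cells, 10 of the 18 genes were higher, including Klk5 (2.52), Klk7 (2.37) and Spink5 (2.48).

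Cdsn (corneodesmosin), the corneodesmosome protein that these proteases cut, was the desmosomal gene furthest apart, at 1071 and 32.9 CPM (5.02, interval 4.81 to 5.24), in 58 of 101 cells. Dsc1, the desmocollin of upper layers, was at 537 and 113 CPM (2.26). Dsg3 and Dsc3, the cadherins of lower layers, were at 9.46 against 104 CPM (-3.32) and 187 against 541.5 CPM (-1.52). Dsg2 had no count in the Lor/Flg cells and 28.7 CPM in the others, at least 5.06-fold lower. The plaque gene Dsp (desmoplakin) lay close together at 2096 and 1778 CPM (0.24), as did Perp (0.17). Over the list 2 of 13 genes were higher and 3 lower (median 0.27), shares near those of all genes. Tight junction genes showed no common direction, with 3 of 16 higher and 3 lower: Cldn23 was at 131 and 17.8 CPM (2.88), Cldn1 at 471 and 463 CPM (0.03).

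Genes of the barrier lipids were higher in 22 of 37 and lower in 1 (median 1.08). Alox12b and Aloxe3, the lipoxygenases that oxidise the linoleate of acylceramides, were at 422 against 67.2 CPM (2.65) and 104 against 21.6 CPM (2.28). Sdr9c7, the dehydrogenase that acts next in that pathway, was at 96.5 and 7.63 CPM (3.66). Of the ceramide genes, Smpd1 (acid sphingomyelinase) was at 142 and 17.4 CPM (3.03), Ugcg (glucosylceramide synthase) at 342 and 101 CPM (1.76), and Cers3 (ceramide synthase) at 123 and 41.0 CPM (1.59). Abca12, the lipid transporter of lamellar bodies, was at 636 and 352 CPM, 0.86 on the log2 scale and below 2-fold. Against spinous-type cells 19 of 36 were higher and none lower (median 1.13), and 15 of 34 in the 78 keratin-positive cells (median 0.92). Lipid genes were low in absolute counts, and Sdr9c7 had 51 counts in all.

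Krt1 and Krt10 were near their level in spinous-type cells. Those cells were chosen by these same keratins, so the nearness is in part a product of that choice. Krt10 was at 37948 CPM in Lor/Flg cells, 31770 in spinous-type cells (0.26) and 21678 in all other keratinocytes (0.81). It was counted in 98 cells, and ran from 0 through a median of 353 to 977 per 10000. Krt1 was at 21170, 17216 and 11884 CPM. Krt78, a late suprabasal keratin, was higher, at 324 CPM against 127 in spinous-type cells (1.35), and so was Calml3, a calmodulin-like epidermal protein, at 564 against 103 CPM (2.45). Clca3a2, on the same list, was at 244 CPM against 2597 in spinous-type cells (-3.41, interval -3.67 to -3.16) and was counted in 23.8% of Lor/Flg cells and 72.7% of other keratinocytes. Mt4, a metallothionein of stratified epithelium, was at 274 against 1066 CPM (-1.95). Over the list, 6 of 21 genes were higher and 3 lower than in spinous-type cells.

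Basal genes were low. None of 25 was higher and 20 were lower than in other keratinocytes (median -2.40), and 17 were lower than in spinous-type cells (median -1.27). Krt5 was at 168 CPM, against 2161 in other keratinocytes (-3.67) and 770 in spinous-type cells (-2.18). Krt15 was at 127, 2054 and 795 CPM, and Itga6, a hemidesmosomal integrin, at 15.1, 146 and 77.3 CPM. Krt5 and Krt15 took part in choosing both comparison sets, so their ratios in part describe that choice. The list medians left out only Lor, Flg and Flg2. Thinned to 500 counts, Krt5 was in 6.93% of Lor/Flg cells, 42.2% of other keratinocytes, 4.88% of fibroblast-type and 7.83% of T cell-type cells, so its share in Lor/Flg cells was at the background. Sostdc1, a hair follicle gene, had no count and was at least 19.1-fold lower than in other keratinocytes.

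Cell cycle genes were low, at 0.0585% of all counts in the Lor/Flg cells and 0.174% in other keratinocytes. Over the 27 genes measured against spinous-type cells, the shares were 0.0581% in the Lor/Flg and 0.0738% in the spinous-type cells. Of 29 measured, 24 were lower and none higher than in other keratinocytes (median -2.39, or -2.04 with genes at 0 counts set to the floor of 3 counts). Mki67 had 6 counts, Ccnb2 had 9 and Ube2c had none, the last at least 8.55-fold lower. Spinous-type cells were also low in these genes, and against them 10 of 27 were lower and 1 higher (median -0.57), with 13 of the 27 resting mostly on 1 cell. A difference from spinous-type cells was not detectable for most of them at this depth.

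**Figure D3:**
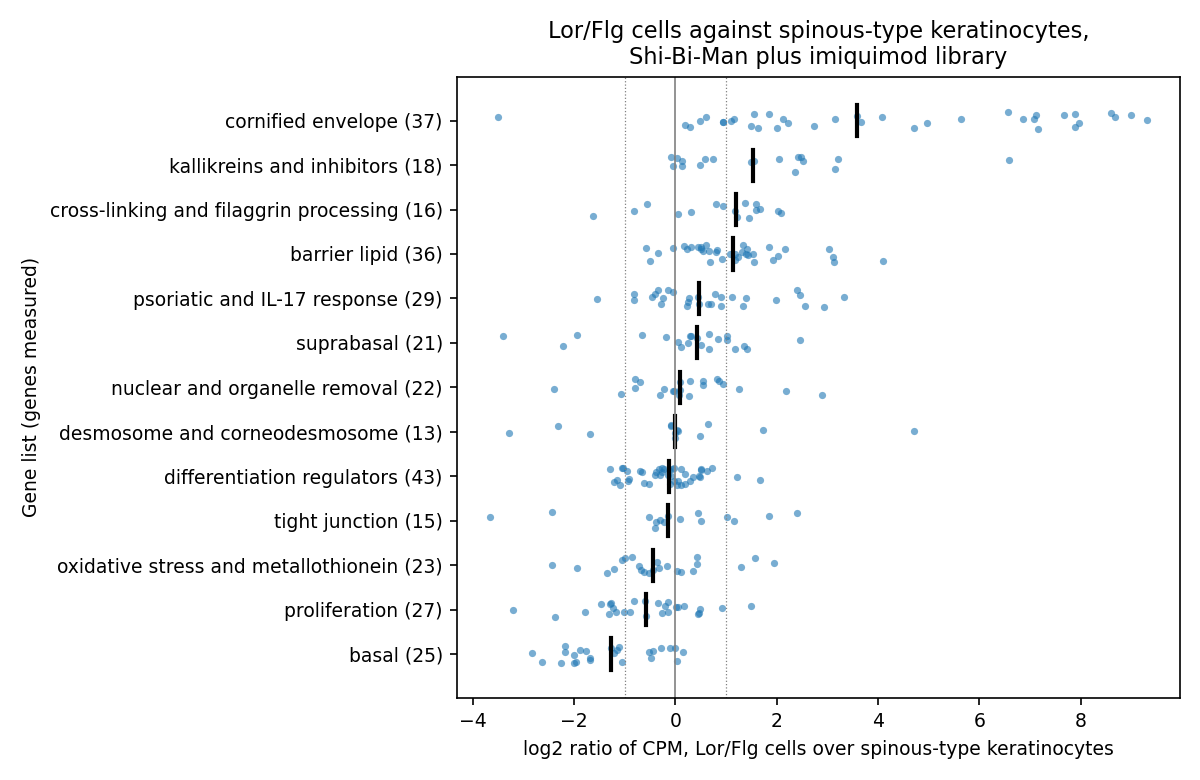
Log2 ratio of CPM between Lor/Flg cells and spinous-type keratinocytes of the SBM library (horizontal) for every measured gene of 13 lists, without Lor, Flg and Flg2. Each point is a gene, black bars are list medians (3.58 for the envelope list, -1.27 for the basal list) and dotted lines mark 2-fold.

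Most regulators of differentiation lay within 2-fold. Of 43 measured, 2 were higher and 8 lower than in other keratinocytes (median -0.14). Prdm1 (Blimp1), a repressor needed for the granular layer, was at 628 and 194 CPM (1.69, interval 1.52 to 1.86), in 73 cells. Hopx, a homeodomain factor of late keratinocytes, was at 223 and 86.5 CPM (1.37). Klf4, a barrier factor, was at 3629 and 2033 CPM (0.84), and Grhl3 and Zfp750, which act with it, at 0.54 and 0.30 on the log2 scale. Ovol1, an early differentiation factor, was at 216 CPM against 355 in other keratinocytes (-0.71) and 450 in spinous-type cells (-1.06). Sox9, a hair follicle factor, was lower, with 8 counts.

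Removal of the nucleus and organelles precedes the corneocyte. Gsdma, a pore-forming gasdermin of upper epidermis, was at 346 and 60.6 CPM (2.52). Trex2, a keratinocyte nuclease, was at 344 and 101 CPM (1.77), and Dnase1l2, the nuclease that clears corneocyte DNA, had 14 counts (26.5 and 2.74 CPM, 3.29). Lmnb1, a lamin, had 1 count. The list as a whole had 5 of 24 genes higher and 5 lower (median 0.20). Among genes of oxidative stress and metallothioneins 3 of 24 were higher and 12 lower (median -1.02). Mt1 was at 859 and 2179 CPM (-1.34) and Mt2 at 323.5 and 1222 CPM (-1.91), while Srxn1 (sulfiredoxin) was at 265 and 49.7 CPM (2.42).

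Of 29 measured genes of the psoriatic and IL-17 response list, 12 were higher and 2 lower than in other keratinocytes (median 0.55). Il1f6, which encodes an agonist of the IL-36 receptor, was at 443 CPM, against 30.8 in other keratinocytes (3.85, interval 3.59 to 4.11) and 44.0 in spinous-type cells. It was counted in 49 cells. Il1f8, a second agonist, was at 136 and 12.3 CPM (3.47), and Il1f5, the antagonist of the same receptor, at 333 and 47.8 CPM (2.80). Defb14, a beta-defensin, was at 401 and 48.9 CPM (3.04) in 31 cells. Members of the list within 2-fold included keratins of the stressed epidermis: Krt16 stood at 516 against 360 CPM (0.52), while Krt6a was 218 and 211 CPM (0.05).

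Some genes are named for their place at the ends of the ranking by ratio, which is a description of that choice. Lypd5, a Ly6-domain gene, was at 725 and 40.4 CPM (4.16). Slurp1, a secreted Ly6-domain protein of the upper epidermis, was at 857 and 50.9 CPM (4.07) in 52 cells, and Ereg, an epidermal growth factor receptor ligand, at 874 and 96.7 CPM (3.18). At the other end, Ptn (pleiotrophin, a growth factor) had 2 counts in the Lor/Flg cells (-4.61, interval -7.98 to -3.07). Ccl27a, a keratinocyte chemokine that draws T cells to skin, was at 17 and 291 CPM (-4.02), and Fcgbp, a mucin-like secreted protein, at 13.2 and 151 CPM (-3.42).

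The 101 cells differed among themselves, and several genes that the selection did not use were higher at higher levels of Lor, Flg and Flg2. The cells were divided by that level into 4 classes of about equal size, with ranges of 20.02 to 38.5, 40.7 to 75.8, 76.7 to 196 and 223 to 1433 per 10000. Hrnr was at 504, 1209, 2363 and 6463 CPM from the lowest to the highest class. Cdsn was at 284, 455, 1200 and 2585 CPM, and Wfdc21 at 49.7, 201, 545 and 3033 CPM. Spink5 was at 2660, 3641, 6528 and 8574 CPM, and Casp14 at 369, 657, 1287 and 1370 CPM. Other envelope genes were divided: Lce1f was at 865, 1171, 2196 and 4498 CPM, and Ivl, Rptn and Kprp also rose with each class. Lce3d did not show this order, at 2611, 992, 2755 and 1482 CPM, nor did Cnfn, at 2426, 3328, 5169 and 4636 CPM. Crct1, Sprr1a, Sprr1b, Sprr2d and Sprr2h did not show it either. Krt1 was at 14358, 19653, 30258 and 20423 CPM, highest in the third class. For Krt10 the values were 31220, 39904, 44478 and 36124 CPM, and Klf4 stayed between 3455 and 4035 CPM. The classes had medians of 5410, 4195, 6503 and 3669 counts, and 16, 23, 23 and 16 of their cells met the keratin rule.

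**Figure D4:**
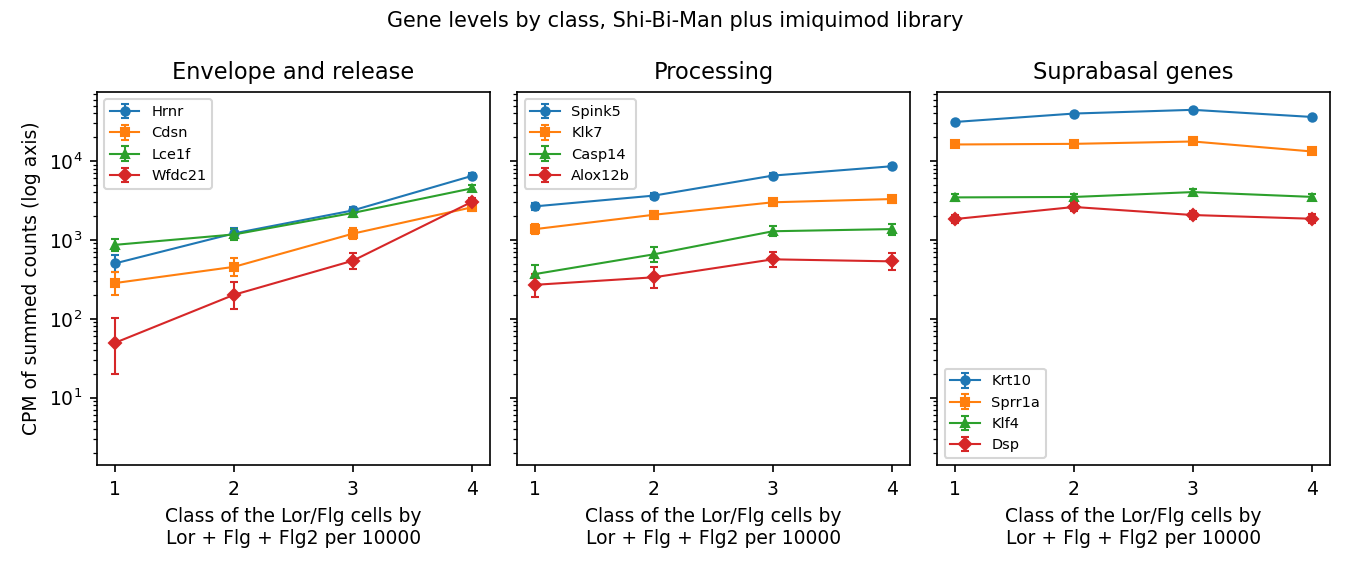
CPM of summed counts (log axis) of 12 genes in 4 classes of the 101 Lor/Flg cells, ordered by the level of Lor, Flg and Flg2 (horizontal, 1 is the lowest), with exact Poisson intervals. Hrnr, Cdsn, Lce1f and Wfdc21 were over 5-fold higher in the highest than in the lowest class, while Krt10, Sprr1a, Klf4 and Dsp stayed within 2-fold.

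Between the 51 cells at or above the median level and the 50 below it, 7.61% of 3483 genes were at least 2-fold higher and 9.22% at least 2-fold lower. Of 35 envelope genes other than the 3 used, 21 were higher and none lower (median 1.66), and 14 of the 35 drew most of their counts from 1 cell. The ends of this ranking are given among named genes past the minimum of 50 counts, 100 CPM and 10% of cells. Apart from Lor and Flg2, the furthest higher of these were Serpina12 (4.57), Wfdc21 (3.73), Rptn (3.69) and Ly86 (3.64). Ly86 had 66.3% of its counts in the upper cells from 1 cell. Without that minimum, log2 ratios in the envelope list reached 9.01. Rptn (repetin, an envelope protein) was counted in 29 of the 101 cells. Clca3a2 was the furthest lower of the genes past that minimum, at 35.3 against 438 CPM (-3.56). Col1a1 was at 494 and 2748 CPM (-2.47), with 47.9% of the lower cells' counts in 1 cell, and Fstl1, Ccl2 and Ccl7 were lower with it. Collagen exceeded keratins in 8 of the 50 lower cells and 1 of the 51 upper cells, and the part of fibroblast RNA in these lower values was not tested. More than 10% of counts were mitochondrial in 7 of the upper and 2 of the lower cells, and the part of cell quality in the differences was not tested either. Across the 101 cells, Spearman's rho was 0.53 for Lor with Flg, 0.47 for Lor with Hrnr and -0.08 for Lor with Krt10, values that share each cell's depth and are given as description. Lor and Flg also chose the cells, so these values in part describe that choice, and cells of 1 library are not replicates.

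In the IMQ library the 10 Lor/Flg cells held 65963 counts, and 3 of them did not meet the keratin rule. Flg was at 13432 CPM in them, against 10808 in the 101 cells of the other library, and Lor at 758 against 4410 CPM, 31 of the 50 Lor counts coming from 1 cell. Per cell, Flg ran from 14.1 through a median of 87.9 to 426 per 10000 counts, and Lor from 0.86 through 4.61 to 54.2. One of the 10 cells had 707 counts, and Langerhans cell markers made up 1386 of every 10000 of them. The gene comparison between the libraries rests on these few cells. Of 3778 genes, 17.9% were at least 2-fold higher in the SBM cells and 10.9% at least 2-fold lower. Between spinous-type cells of the libraries, 1262 and 448 cells, the same shares were 5.73% and 6.8% of 11350 genes.

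Psoriasis-linked genes were lower in the Lor/Flg cells of the SBM library: 14 of 24 measured were lower and none higher (median -1.49). S100a8, an alarmin of inflamed epidermis and neutrophils, was at 22.7 CPM against 6019 (log2 ratio -7.99), and 1 IMQ cell held 69.3% of the latter's counts. Without the highest cell of each set its ratio was -7.45. The 5 neutrophil markers, S100a8 among them, made up 94.9 per 10000 counts of the IMQ and 0.965 of the SBM Lor/Flg cells. In each set 3 of the 5 were seen: Cxcr2 had 4 IMQ and 22 SBM counts, S100a9 had 225 and 17, and Csf3r and Retnlg were at 0. The part of neutrophil RNA in these differences was not tested. Krt16 was at 516 and 2380 CPM (-2.21, interval -2.49 to -1.91), Krt17 at 274 and 5655 CPM (-4.36) and Krt6b at 28.4 and 819 CPM (-4.82). Without the highest cell of each set these were -2.20, -3.90 and -4.64. Stfa1 and Stfa3, stefin protease inhibitors, were at 380 against 3275 CPM (-3.11) and 1233 against 6307 CPM (-2.35). Defb6, a beta-defensin, was at 469 and 4108 CPM (-3.13), and Defb14 at 401 and 1743 CPM (-2.12).

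The same genes differed in the same direction between spinous-type cells of the libraries, which had more counts behind them: S100a8 was at 17.2 against 5141 CPM (-8.21), Krt16 at 439 against 2958 CPM (-2.75), Stfa1 at 671.5 against 3883 CPM (-2.53) and Defb6 at 315 against 2360 CPM (-2.91). No difference from the spinous-type cells in this respect was tested. Il1f6 did not follow, at 443 and 576 CPM in the Lor/Flg cells (-0.40, interval -0.88 to 0.15), although it was at 44.0 and 106 CPM in spinous-type cells (-1.26). Klk7 and Casp14 were lower by more than 2-fold in the SBM cells, at -1.32 and -1.40, and Klk5 was higher at 1.22. Without the highest cell of each set these were -0.88, -1.35 and 1.35, so Klk7 was then within 2-fold.

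Structural genes of the granular cell were close between the libraries or differed in both directions. Cdsn was at 1071 and 1016 CPM (0.07, interval -0.29 to 0.46), or 0.87 on the log2 scale without the highest cell of each set, since 1 cell held 52.2% of its IMQ counts. Spink5 was at 5214 and 3911 CPM (0.41) and Sprr1a at 15988 and 16949 CPM (-0.08). Hrnr was at 2475 and 500.3 CPM (2.29, interval 1.81 to 2.85), and in spinous-type cells at 94.7 and 27.5 CPM (1.77). Rptn went the other way, at 503 and 2517 CPM (-2.32, or -1.47 without the highest cell of each set), as did Calml3, at 564 and 2001 CPM (-1.83). Krt77, a suprabasal keratin, had 2020 counts (3822 CPM) in 80 of the 101 cells and none in the 10 IMQ cells, at least 84.0-fold higher. In spinous-type cells it was at 2418 and 51.0 CPM (5.56, interval 5.31 to 5.83). Of 35 envelope genes, 15 were higher and 5 lower (median 0.19), 14 of them resting mostly on 1 cell.

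Krt79, an upper hair follicle keratin, was at 248 CPM in the SBM cells and 5761 CPM in the IMQ cells. Upper hair follicle markers made up 25.8 and 235 per 10000 counts of the Lor/Flg cells, with 4 of 5 seen and Sostdc1 at 0 in both, and 4 of the 10 IMQ cells exceeded 100 per 10000, against 3 of the 101. In other keratinocytes the same markers made up 39.5 per 10000 in the SBM and 203 in the IMQ library. The difference between libraries was thus not particular to the Lor/Flg cells. These markers include Krt17 and Defb6, which are also given above among psoriasis-linked genes. The part of follicle cells in the differences between the libraries was not tested. Krt79 was also lower in the spinous-type cells, at 188 against 2813 CPM (-3.90).

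**Figure D5:**
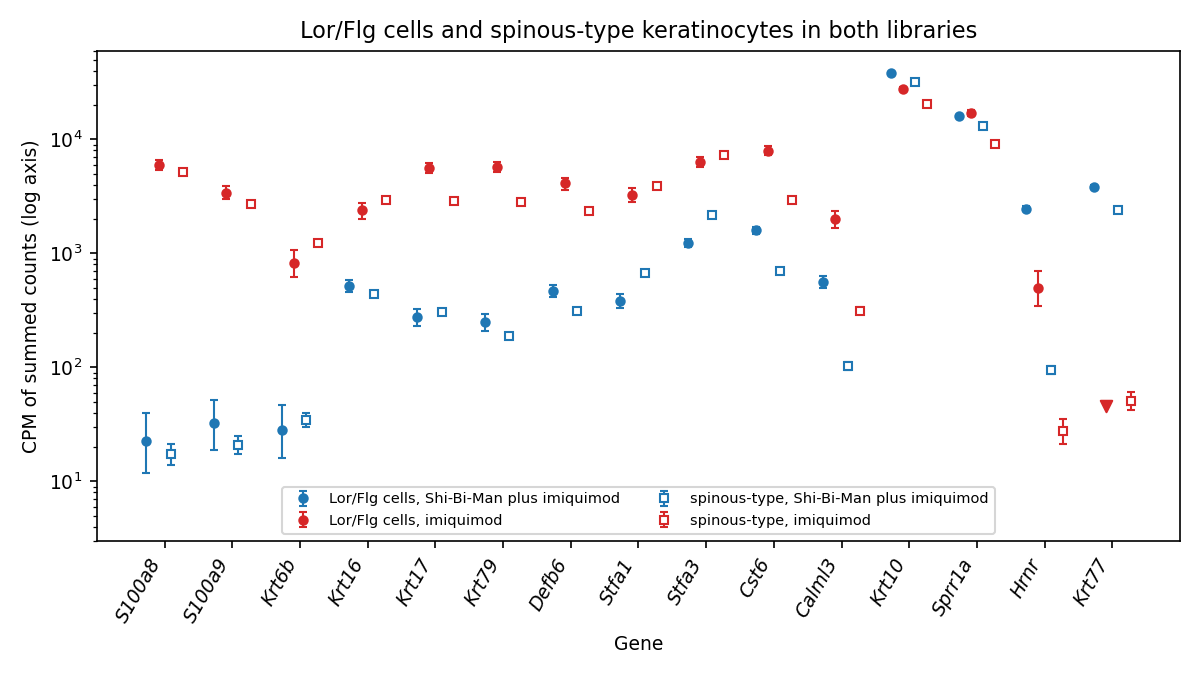
CPM of summed counts (log axis) of 15 genes in Lor/Flg cells (filled circles) and spinous-type keratinocytes (open squares) of both libraries, with exact Poisson intervals and a triangle at the floor of 3 counts where no count was seen. S100a8, Krt16 and Defb6 were lower with Shi-Bi-Man in both cell sets, Krt10 and Sprr1a lay within 2-fold between libraries, and Krt77 was seen in no IMQ Lor/Flg cell.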

How the data were processed

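Single-cell 3′ libraries of dorsal skin, 1 for imiquimod (IMQ) and 1 for Shi-Bi-Man with imiquimod (SBM), were grouped by the treatment in the labels. The authors deposited matrices of unnormalised counts, whole numbers for each gene in each barcode, in 11316 and 8054 barcodes with at least 500 counts each. The submitters' processing notes name mm10 and GRCm38. The aligner, the counting program, the cell calling and whether counts are of molecules are not given in the sources used here. Of 55471 gene entries, 99.4% matched GENCODE vM21 of GRCm38, which gave coordinates. Entries sharing a symbol (231) were summed.

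Here, cells needed 200 genes and at most 20% mitochondrial counts. This left 11019 and 7946 cells, with medians of 1616 and 1784 counts. Doublets were kept. Scrublet (scanpy 1.11.5, expected rate 0.08) marked 83 cells (1.04%) of the SBM library, 2 of them Lor/Flg cells, and 0 of 11019 in the other, where it did not work.

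Counts were summed per cell set. CPM had exact Poisson intervals, and log2 ratios, with 0.5 added to each count, had exact conditional binomial intervals. Folds against 0 used a floor of 3 counts per set. Fibroblast-type cells had at least 200 per 10000 counts of 5 fibroblast markers, more than keratins. T cell-type cells had at least 2 of 5 markers. The code was tested on simulated data. The selection, the 13 gene lists and the alternatives were chosen with earlier results of these data known. Named genes were the 10 highest and 10 lowest ratios against other keratinocytes, 8 each way between upper and lower cells by level, 6 each way against spinous-type cells, and from each list the 4 highest in level and 2 furthest in ratio, among genes past a minimum of 50 counts, 100 CPM and 10% of cells where ranked by ratio outside the lists, together with the 5 markers. Mitochondrial, ribosomal protein, haemoglobin and unnamed genes were left out of the ranking. Other list members were named after their values were seen.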

Additional observations from a re-analysis of the deposited data

How the results depend on the processing

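No paired analysis was possible because each treatment was 1 library and the labels carry no replicate numbers. No replicate could be left out for the same reason. The share of Lor/Flg cells in the SBM library, 1.27%, became 1.69% with a limit of 10 per 10000, 0.805% with 50, 0.982% for keratin-positive cells and 2.61% when 1 gene was enough, the last chosen after seeing the data. With 1 gene enough, the IMQ share was 0.281%. The log2 ratio of the shares ran from 3.19 to 3.86 over all these settings. The envelope median of 4.07 against other keratinocytes became 2.47 in keratin-positive cells, 3.58 against spinous-type cells, 3.65 for genes with at least 50 counts, and 2.55 without the cell with the most Lce counts, also chosen after seeing the data. The barrier lipid median of 1.08 became 1.26 with a limit of 50 per 10000, 1.22 with other keratinocytes taken from 50 per 10000 keratin counts, and 1.29 as a mean of per-cell values. The basal median of -2.40 became -1.27 against spinous-type cells, where 1554 in place of 3093 genes were lower. With at least 50 counts, 836 in place of 1291 genes were higher. Of 103 named genes, 62 moved out of their main counting interval against spinous-type cells and 48 with a limit of 50 per 10000. A reversal of direction was looked for only in named genes at least 2-fold apart in the main setting. Among those, direction held for all but 4. Fstl1 was at -0.66 with a limit of 50 per 10000, and Col1a1 at -0.21 in keratin-positive cells. Lce1a1 and Lce1b had no count in those cells, and their values of -0.37 and -0.89 come from the added 0.5. The causes were not tested. Depth limits the IMQ Lor/Flg cells most, with 65963 counts in 10 cells.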
